A study of Homo sapiens with 12 samples.

Results

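Amino acid shortage and several other stresses are read by kinases that phosphorylate the translation factor eIF2, after which the transcription factor ATF4 is made in larger amounts. ATF4 binds DNA with partners of the C/EBP and AP-1 families and raises genes that import amino acids, synthesise serine, asparagine and cysteine, feed one-carbon units to mitochondria and shut the response down again. In kidney tubule cells this response is known from nutrient, endoplasmic reticulum and mitochondrial stress. The 31 genes described here are ATF4, its partners and genes known as its targets. They were listed by name, out of 19775 genes that probe sets of the array name alone, and where several probe sets named a gene alone, the one brightest on average over all 12 arrays stood for it. The list held 7 transcription factors and coregulators, 5 stress regulators, 6 enzymes of serine and one-carbon metabolism, 5 other amino acid enzymes, 5 transporters and 3 genes for secreted proteins or receptors. A probe set naming the gene alone was found for 30 of the 31, and GPT2 was not analysed here. Of these, 29 passed the filter on low values, a log2 level above 4 on at least 3 arrays. The glycine transporter gene SLC6A9 did not pass: it lay between 2.20 and 2.27 on 11 arrays and at 3.74 in Nnm replicate 1 of 48 h.

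HK-2 is an immortalized cell line that derives from the proximal tubule of a human kidney. These cells received a high dose of a compound the labels call Nnm, or vehicle. Exposure lasted 24 h or 48 h, which makes 4 groups, and the labels number 3 biological replicates per group. Neither the dose nor the vehicle is named further in the sources used here. Nothing in the labels says whether same-numbered replicates shared a culture day, and the series is 1 line, so p-values measure the spread between these samples. Total RNA was hybridised to 12 Affymetrix arrays, and the deposited values are log2 levels. Levels of different genes come from different probes and are not compared with each other here. Fewer cells carrying a transcript and less transcript per cell cannot be told apart in such samples.

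Of 11 proximal tubule markers with a probe set, PAX8 and CDH6 were above log2 4 on all arrays, while 9, among them LRP2, CUBN, AQP1 and MME, were above it on none. All 5 epithelial markers, including KRT18 and EPCAM, were above it throughout. The 3 leukocyte and 4 distal nephron markers measured were above it on no array, nor were 3 of 4 endothelial ones, and COL1A1, DCN and LUM of 6 fibroblast markers and PODXL and SYNPO of 4 podocyte markers were above it on all. The mean log2 level over the fibroblast markers ran from 6.56 to 6.67 in 24 h controls and from 6.22 to 6.76 in 24 h Nnm arrays, and at 48 h from 6.41 to 6.50 and from 6.38 to 6.51. One Nnm array at each time, replicate 2, stood apart: on the first principal component (57.4% of the variance) it scored -16.1 at 24 h and -19.8 at 48 h, where the lowest other Nnm array scored 68.6 and the highest control -44.2. Each result below therefore gives the single arrays, and counts are also given without these 2 arrays. They were left out for lying near the controls, so the p-values of that fit do not test the members.

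Some promoters of these genes hold a sequence tied to ATF4. The list was made by name, but known targets may be known in part through this sequence, so its share does not test the list. ATF4 and a C/EBP partner bind a composite element whose core is TGATGNAA, and the windows from 250 bases before to 50 after each annotated start in RefSeq (GRCh38.p14) were searched for it on both strands. Windows were found for 26 of the 31 genes, and 6 of these genes, 23.1%, held the core in at least 1 window, against 4.46% of all 27305 genes with a window. Counted by window, 6 of 43 member windows held it, against 3.62% of all 35116 windows. The palindrome TGACGTCA, the cyclic AMP response element, was found in 1 member, PPP1R15A, against 2.25% of all genes, and the motifs overlapped in 0 member windows. The 5 stretches upstream of a start are printed 5′ to 3′ on the gene's strand with the core in capitals, because their genes recur in the results.
ASNS: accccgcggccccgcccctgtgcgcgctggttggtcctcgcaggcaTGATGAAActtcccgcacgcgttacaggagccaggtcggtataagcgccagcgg
CEBPG: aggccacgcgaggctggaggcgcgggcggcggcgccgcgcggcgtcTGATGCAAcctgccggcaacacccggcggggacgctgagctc
JDP2: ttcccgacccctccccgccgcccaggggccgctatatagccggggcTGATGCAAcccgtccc
SLC1A5: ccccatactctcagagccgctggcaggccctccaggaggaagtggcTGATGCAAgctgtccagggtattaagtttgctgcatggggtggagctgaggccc
CHAC1: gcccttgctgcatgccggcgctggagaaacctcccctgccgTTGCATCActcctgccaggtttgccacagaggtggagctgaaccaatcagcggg
The ASNS stretch is chr7:97872423-97872522 on the minus strand, and its core begins 68 bases before the start. The others are chr19:33374025-33374112 (plus strand, 42 bases before) for CEBPG, chr14:75427960-75428021 (plus, 16 bases before) for JDP2 and chr19:46784858-46784957 (minus, 97 bases before) for SLC1A5. The CHAC1 stretch is chr15:40953221-40953315 on the plus strand, where the core lies on the opposite strand from 209 bases before the start. In SLC3A2 the core stands after the start, from position 38, and is not printed. CEBPG and ASNS have 2 annotated windows and JDP2, SLC1A5 and SLC3A2 have 3, of which 1 held the core in each. A match is a description of these letters and no measured binding.

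Across the 29 measured genes, the response to Nnm was large in replicates 1 and 3 and small or opposite in replicate 2. The difference between Nnm and the control of the same number had a median over the members of 1.10 on the log2 scale in replicate 1, 0.03 in replicate 2 and 0.99 in replicate 3 at 24 h. At 48 h these medians were 0.75, -0.22 and 0.95, while the medians over all 22829 tested probe sets lay between -0.02 and 0.02 in the 6 pairs. At 24 h 18 members were at least 2-fold higher in replicate 1 (11.5% of all tested probe sets were), 0 in replicate 2 (2.23% of all) and 14 in replicate 3 (11.0% of all). At 48 h the counts were 12 (12.7% of all), 0 (2.09% of all) and 14 (8.95% of all). NUPR1 is in the counts of replicates 1 and 3 at both times, and it passed the filter only through Nnm arrays. At least 2-fold lower members numbered 1 in replicate 1 (12.5% of all) and 1 in replicate 3 (12.4% of all) at 24 h, CBS in both, and 0 in both at 48 h (9.18% and 9.00% of all). Members thus stood high in the 2 replicates where many other probe sets changed in either direction.

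**Figure D1:**
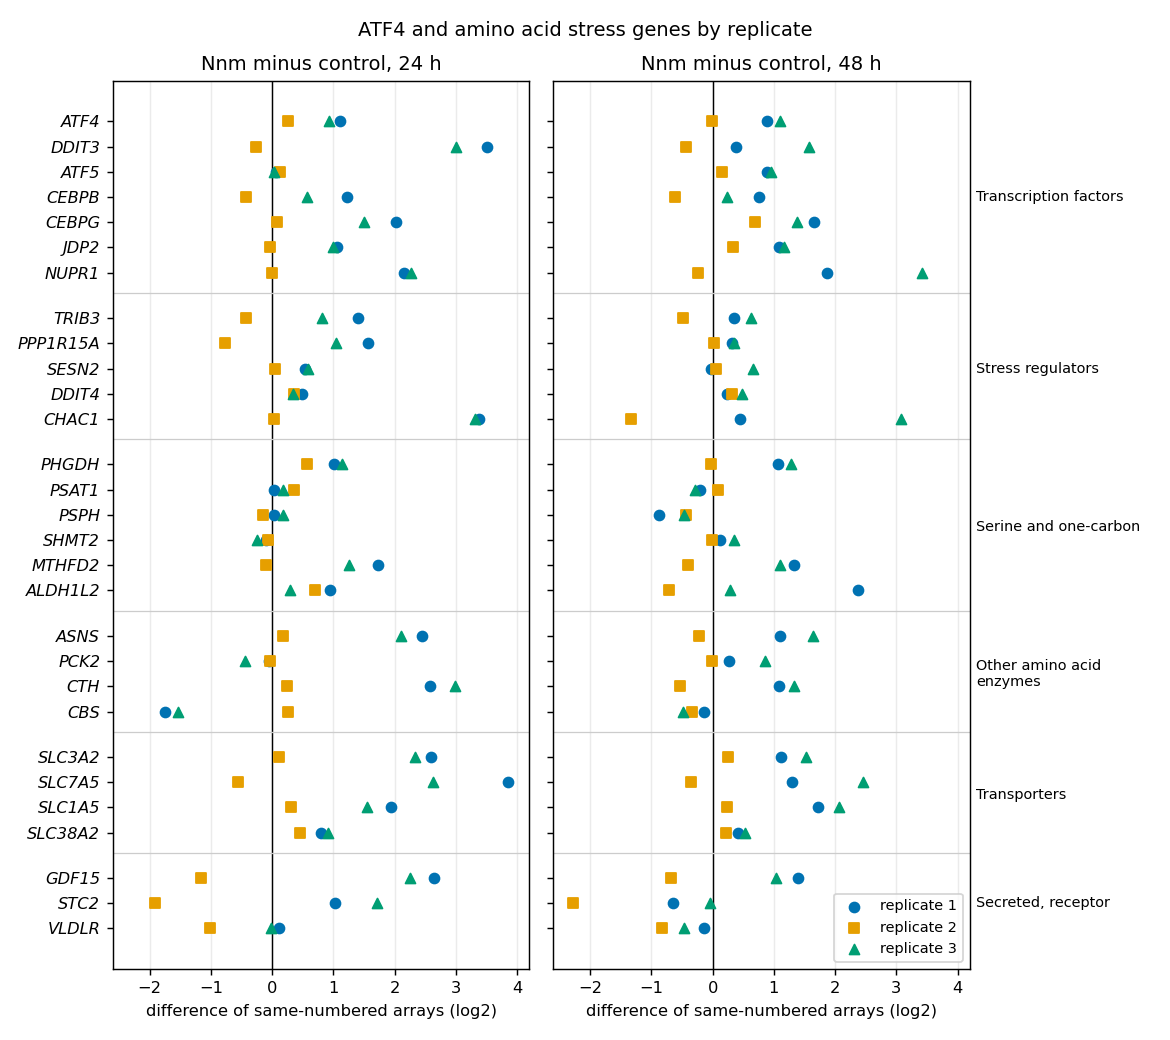
Nnm minus control of the same replicate number in log2 for each of the 29 measured genes (rows, by role) at 24 h and 48 h (panels); each symbol is 1 pair of arrays, with colour and shape giving the replicate number. Replicates 1 and 3 lie mostly to the right of 0, up to 3.85 for SLC7A5. Replicate 2 lies on both sides of 0, from -2.28 for STC2 to 0.70 for CEBPG, both at 48 h.

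**Figure D2:**
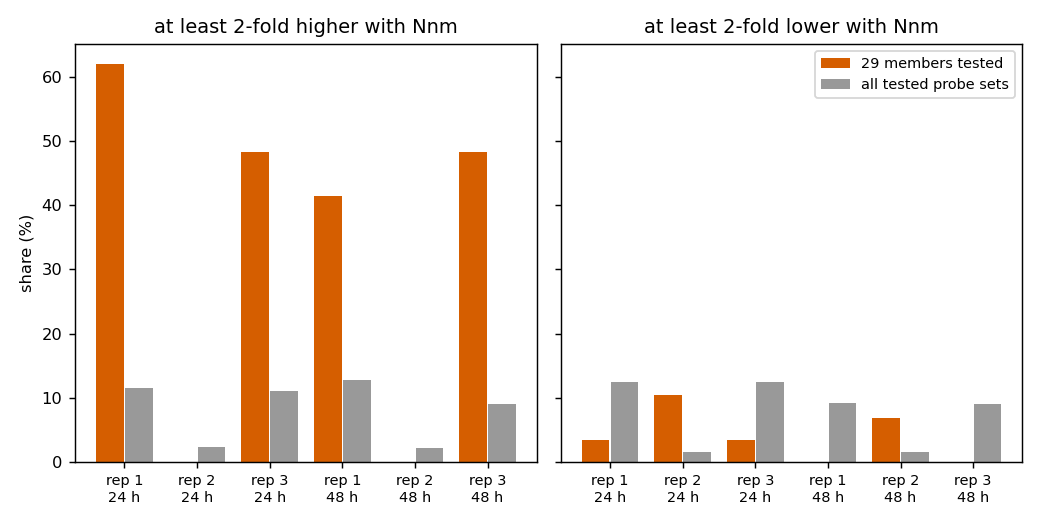
Share in percent of the 29 tested members (orange) and of all 22829 tested probe sets (grey) that were at least 2-fold higher (left) or lower (right) with Nnm in each pair of same-numbered arrays. The members' share of higher genes was 62.1% in replicate 1 at 24 h and 0 in replicate 2 at both times. NUPR1, which passed the filter only through Nnm arrays, is among the members.

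With this spread few members were called. In the limma fit over all arrays (Benjamini-Hochberg adjusted p under 0.05 over all tested probe sets), 1 of 29 rose at 24 h, SLC38A2, where 14.7% of all probe sets were called and 7.32% of all were higher. At 48 h 0 rose and 1 fell, PSPH, where 10.2% of all were called (5.74% higher and 4.44% lower). Over the mean of both times, which uses all 12 arrays, SLC38A2, ATF4 and CEBPG rose and PSPH fell, 4 of 29, where 35.5% of all were called (18.2% higher and 17.2% lower). The members' share of calls was thus below that of all probe sets in each comparison, although their median change over both times was 0.65 against about 0 for all and 25 of 29 lay above 0 against 49.9% of all. With the replicate number as a block, 9 members rose and 0 fell at 24 h (ATF4, CEBPG, DDIT4, PHGDH, ASNS, CTH, SLC3A2, SLC1A5 and SLC38A2), where 29.3% of all were called (14.2% higher and 15.1% lower). At 48 h ATF5, CEBPG and SLC1A5 rose and PSPH fell (22.1% of all called, 11.9% higher and 10.2% lower), and over both times 13 rose and 1, PSPH, fell (47.2% of all called, 23.8% higher and 23.4% lower). The 13 were ATF4, ATF5, CEBPG, JDP2, NUPR1, DDIT4, PHGDH, MTHFD2, ASNS, CTH, SLC3A2, SLC1A5 and SLC38A2. Without Nnm replicate 2 of both times, 18 rose and 1 fell at 24 h (47.0% of all called, 23.4% higher and 23.6% lower). At 48 h 18 rose and 1 fell (42.1% of all called, 22.3% and 19.8%), and over both 21 rose and 2 fell (58.2% of all called, 29.7% and 28.5%). NUPR1, which passed the filter only through Nnm arrays, is in the count of 13 and in the 3 counts without replicate 2. It is also in the members' medians, that of the factors included, and in the counts by sign and by replicate pair. Same-numbered arrays of the 2 times deviated together, so the fit over both times may count arrays that are not independent. The same limit holds for 24 h and 48 h, because their spread is estimated over both times. A block removes a shift shared by all arrays of a number. On the first principal component only the Nnm arrays of number 2 stood apart, so p-values with the block may be too low. With the 6 arrays of 1 time alone, without the block, 0 members were called at 24 h and 0 at 48 h. When each number's 2 times were averaged first, an alternative chosen after seeing the data, 0 members and 1024 probe sets were called, or 0 and 0 with the block.

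Among the transcription factors, ATF4 itself measured 12.21, 12.20 and 12.36 in the 24 h controls and 13.31, 12.46 and 13.29 with Nnm, in the order of the replicate numbers. At 48 h the controls were at 12.82, 12.64 and 12.56 and the Nnm arrays at 13.72, 12.64 and 13.66. All 3 Nnm arrays stood above all controls at 24 h, the second by the least, while at 48 h the second lay within the controls. ATF4 rose over both times by 0.71 ± 0.21 (SE) on the log2 scale (limma, adjusted p = 0.0266, and 0.130 with the times averaged first), and it was not called at 24 h (0.76, adjusted p = 0.101) or 48 h (0.66, adjusted p = 0.164). With the block the 24 h change passed (adjusted p = 0.0403). The call over both times was lost without any 1 of control replicates 1 and 2 or Nnm replicates 1 and 3 of 24 h, control replicates 2 and 3 of 48 h, or Nnm replicates 1 and 3 of 48 h, with adjusted p between 0.0524 and 0.0656, and with no filter on low values (adjusted p = 0.0833). RefSeq lists pseudogenes of ATF4, which this probe set may not tell from the gene. The same limit applies to ASNS, MTHFD2, PSAT1, PSPH and SLC7A5, which also have listed pseudogenes.

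CEBPG, a C/EBP family protein that pairs with ATF4, stood at 8.09, 8.08 and 8.43 in 24 h controls and 10.12, 8.16 and 9.93 with Nnm. At 48 h it was at 8.23, 7.68 and 8.19 in controls and 9.89, 8.38 and 9.57 with Nnm. Here replicates 1 and 3 were high at both times, and at 48 h all Nnm arrays lay above all controls. Over both times it rose by 1.22 ± 0.36 (SE) (adjusted p = 0.0251, and 0.124 with the times averaged first), with adjusted p of 0.119 at 24 h and 0.130 at 48 h and of 0.0313 and 0.0327 with the block. A second CEBPG probe set differed by 0.32 at 24 h and by -0.10 at 48 h (adjusted p over both times = 0.668), so the call rests on 1 of 2 probe sets. With the probe sets averaged it was 0.67 (adjusted p = 0.0501). It also fell out of the called genes without control replicate 1 (24 h), without Nnm replicate 1 or 3 of either time and without control replicate 2 (either time), where adjusted p reached 0.0618, and with no filter on low values (adjusted p = 0.0886).

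The other factors were not called with all arrays. DDIT3, the bZIP protein CHOP that marks prolonged stress, measured 7.97, 8.29 and 8.13 in 24 h controls and 11.48, 8.03 and 11.13 with Nnm. At 48 h it measured 10.99, 9.04 and 8.97 in controls and 11.36, 8.60 and 10.54 with Nnm. Nnm replicates 1 and 3 were high at both times, replicate 2 was below its control at both, and control replicate 1 of 48 h was above 2 of the 3 Nnm arrays of that time. The differences were 2.08 at 24 h (adjusted p = 0.143) and 0.50 at 48 h (adjusted p = 0.758). NUPR1, a small stress-induced chromatin protein, lay under the filter level in all controls, at 2.85 to 3.92, and at 5.19, 2.85 and 5.38 with Nnm at 24 h and 5.78, 2.84 and 6.53 at 48 h. Its Nnm mean was at least 1.39-fold above the filter level at 24 h and 2.07-fold at 48 h. It passed the filter through Nnm replicates 1 and 3 alone, so its p-values are not given. JDP2, a bZIP repressor, differed by 0.76 over both times (adjusted p = 0.0761, and 0.0120 with the block). ATF5, which like ATF4 is controlled by translation, differed by 0.07 at 24 h and 0.66 at 48 h, where it was not called with all arrays (adjusted p = 0.170) and passed with the block (adjusted p = 0.0378) or without Nnm replicate 2 (adjusted p = 0.00305). Its other tested probe sets differed by -0.11 and 0.65 at 48 h and did not pass with the block (adjusted p = 0.453 and 0.0502). CEBPB, another C/EBP partner, differed by 0.29 over both times (adjusted p = 0.560), with replicate 2 below its control by 0.43 at 24 h and 0.61 at 48 h. Of the 7 factors, 2 rose over both times, where 18.2% of all probe sets did. With the block 5 did, NUPR1 among them, where 23.8% of all did.

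**Figure D3:**
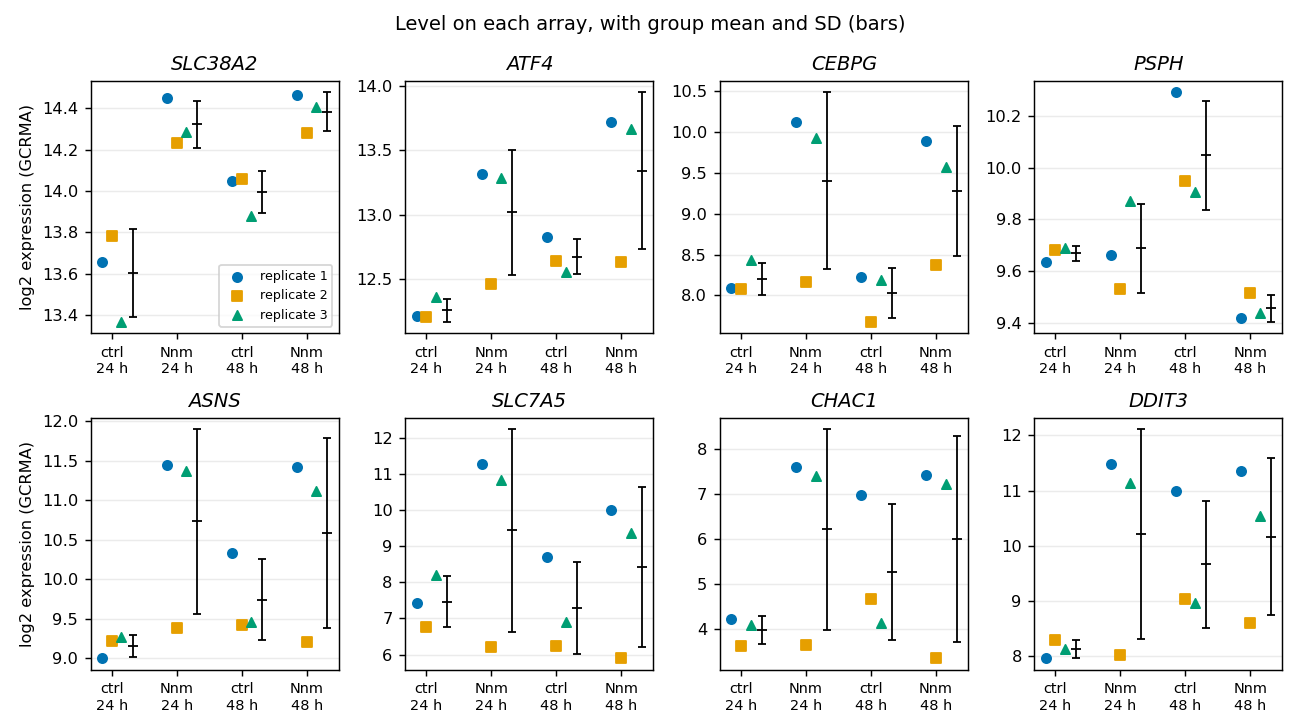
Log2 level on each of the 12 arrays for SLC38A2, ATF4, CEBPG, PSPH, ASNS, SLC7A5, CHAC1 and DDIT3 (panels, each with its own vertical axis); points are single arrays of the 4 groups, with colour and shape giving the replicate number, and the black bars give each group's mean and SD (n = 3). SLC38A2 is separated between the groups in all replicates. The other genes that were high with Nnm show replicates 1 and 3 high and replicate 2 near the control level or, as for CHAC1 at 48 h and SLC7A5, below it.

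None of the 5 stress regulators was called with all arrays. DDIT4, which restrains the growth kinase mTORC1, measured 13.13, 13.03 and 12.65 in 24 h controls and 13.62, 13.39 and 13.00 with Nnm, and at 48 h 13.60, 13.05 and 12.97 against 13.83, 13.37 and 13.44. The groups overlapped, but each Nnm array was above its same-numbered control, in 6 of 6 pairs. The difference over both times was 0.37 (adjusted p = 0.0975), and it passed with the block (adjusted p = 0.0110). CHAC1, an enzyme that degrades glutathione, measured 4.22, 3.62 and 4.08 in 24 h controls and 7.60, 3.65 and 7.39 with Nnm. At 48 h the controls were at 6.98, 4.68 and 4.14 and the Nnm arrays at 7.43, 3.35 and 7.21. Nnm replicate 2 was at the control level at 24 h and below all controls at 48 h, and control replicate 1 of 48 h was close to the high Nnm arrays. The 24 h control mean of 3.97 was under the filter level, and the Nnm mean was at least 4.64-fold above that level (adjusted p = 0.232). TRIB3, a pseudokinase that restrains ATF4, differed by 0.38 over both times (adjusted p = 0.408), PPP1R15A, the phosphatase subunit that reverses eIF2 phosphorylation, by 0.42 (adjusted p = 0.480), and SESN2, a leucine sensor, by 0.31 (adjusted p = 0.309). In these 3, replicate 2 differed from its control by -0.43, -0.77 and 0.05 at 24 h, where replicate 1 differed by 1.40, 1.56 and 0.54. A second PPP1R15A probe set differed by 1.01 at 24 h (adjusted p = 0.243, and 0.0482 with the block). Over both times it differed by 0.71 (adjusted p = 0.203, and 0.0337 with the block).

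The enzymes of serine synthesis and one-carbon metabolism went in different directions. PSPH, the phosphatase of the last step to serine, measured 9.64, 9.68 and 9.69 in 24 h controls and 9.66, 9.53 and 9.87 with Nnm, and at 48 h 10.29, 9.95 and 9.91 in controls and 9.42, 9.52 and 9.44 with Nnm. It overlapped at 24 h, and at 48 h all 3 Nnm arrays, the second included, lay below all controls. PSPH fell at 48 h by 0.59 ± 0.14 (SE) on the log2 scale (adjusted p = 0.0272) and over both times by 0.29 ± 0.10 (adjusted p = 0.0418, and 0.141 with the times averaged first), while at 24 h the difference was 0.02 (adjusted p = 0.935). A second probe set fell at 48 h as well, by 0.37 (adjusted p = 0.0490), but it was not called over both times (-0.16, adjusted p = 0.0996). The 48 h call was lost without any 1 of the 3 controls of that time or without Nnm replicate 1 or 3, with adjusted p from 0.0572 to 0.100, and with the 6 arrays of 48 h alone (adjusted p = 0.0858). The call over both times held in 3 of the 12 fits without 1 array, those without Nnm replicate 3 of 24 h, control replicate 3 of 48 h or Nnm replicate 2 of 48 h, and adjusted p reached 0.0856. It was also lost with no filter on low values (adjusted p = 0.0536). RefSeq lists a pseudogene, PSPHP1.

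PHGDH, the first enzyme of the serine pathway, measured 9.59, 8.91 and 8.99 in 24 h controls and 10.61, 9.49 and 10.13 with Nnm, and 9.78, 9.14 and 9.20 against 10.83, 9.12 and 10.48 at 48 h. Replicate 2 was higher at 24 h by 0.58 and level with its control at 48 h (-0.02), and the groups overlapped at both times. The difference over both times was 0.84 (adjusted p = 0.0540, and 0.00572 with the block). PSAT1, the aminotransferase between PHGDH and PSPH, differed by 0.02 (adjusted p = 0.901), with a 95% interval from -0.25 to 0.30 that excludes a 2-fold change. SHMT2, which passes serine carbon to folate in mitochondria, differed by 0.01 (adjusted p = 0.972, interval from -0.38 to 0.39). That interval holds for the probe set that stood for the gene. Another SHMT2 probe set was lower in every same-numbered pair. It differed by -0.34 over both times (adjusted p = 0.0814, and 0.0123 with the block). The remaining SHMT2 probe set differed by -0.06 (adjusted p = 0.814). MTHFD2, the next mitochondrial folate enzyme, differed by 0.82 (adjusted p = 0.135, and 0.0418 with the block), with Nnm replicates 1 and 3 between 12.84 and 13.30 and replicate 2 at 11.44 and 11.09. A second MTHFD2 probe set differed by 0.61 (adjusted p = 0.138) and did not pass with the block (adjusted p = 0.0578). ALDH1L2, a mitochondrial folate dehydrogenase, did not overlap at 24 h, with controls from 3.94 to 4.61 and Nnm arrays from 4.78 to 4.90. At 48 h it measured 6.33, 3.32 and 4.72 with Nnm, and it was not called (adjusted p over both times = 0.229). The 3 enzymes of the serine pathway therefore had values of 0.84, 0.02 and -0.29 over both times.

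Of the other amino acid enzymes, 0 of 4 were called with all arrays. ASNS, asparagine synthetase, measured 9.00, 9.21 and 9.27 in 24 h controls and 11.44, 9.39 and 11.37 with Nnm, and 10.33, 9.43 and 9.47 against 11.42, 9.21 and 11.11 at 48 h. All Nnm arrays were above the controls at 24 h, the second only just, and at 48 h the second was the lowest of all 6. The differences were 1.57 at 24 h (adjusted p = 0.108, and 0.0391 with the block) and 0.84 at 48 h (adjusted p = 0.398). CTH, which releases cysteine from cystathionine, measured 7.34, 7.58 and 6.84 in 24 h controls and 9.93, 7.82 and 9.82 with Nnm, and 8.86, 7.98 and 8.03 against 9.94, 7.45 and 9.35 at 48 h. It had the pattern of ASNS, without overlap at 24 h and with replicate 2 lowest at 48 h. The difference over both times was 1.28 (adjusted p = 0.0587, and 0.0233 with the block), and at 24 h it was 1.94 (adjusted p = 0.0738, and 0.0309 with the block). CBS, which makes the cystathionine that CTH uses, had the opposite sign: 9.03, 8.40 and 8.60 in 24 h controls and 7.27, 8.66 and 7.07 with Nnm, and 9.23, 8.87 and 8.70 against 9.08, 8.54 and 8.21 at 48 h. It was low in replicates 1 and 3 at 24 h and within or near the controls elsewhere (24 h difference -1.01, adjusted p = 0.0970). Without Nnm replicate 2 of both times the 24 h difference was -1.51 for CBS and 2.62 for CTH. PCK2, mitochondrial phosphoenolpyruvate carboxykinase, differed by 0.10 over both times (adjusted p = 0.697).

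The 4 measured transporters had the largest median difference of the role groups, 1.31 over both times, against 0.76 for the factors and about 0 for all probe sets. SLC38A2, a sodium-coupled importer of small neutral amino acids, measured 13.66, 13.78 and 13.37 in 24 h controls and 14.45, 14.23 and 14.28 with Nnm, and 14.05, 14.06 and 13.88 against 14.46, 14.28 and 14.41 at 48 h. The groups did not overlap at either time, and replicate 2 differed in the same direction as the others, by 0.45 and 0.23. SLC38A2 rose at 24 h by 0.72 ± 0.14 (SE) (adjusted p = 0.0157) and over both times by 0.55 ± 0.10 (adjusted p = 0.00342), and the 48 h difference was 0.39 (adjusted p = 0.0882). All 3 of its probe sets rose over both times, with differences of 0.55, 0.64 and 0.62. The call over both times held in all 12 fits without 1 array and was lost with the times averaged first (adjusted p = 0.0608). The 24 h call was lost without control replicate 1 or 3 or Nnm replicate 1 or 3 of that time, with adjusted p from 0.0523 to 0.0757, and with the 6 arrays of 24 h alone (adjusted p = 0.0670).

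SLC1A5, the glutamine exchanger, measured 9.11, 8.38 and 9.11 in 24 h controls and 11.06, 8.68 and 10.66 with Nnm, and 9.59, 8.65 and 8.77 against 11.30, 8.89 and 10.85 at 48 h. Every Nnm array was above its same-numbered control, with replicate 2 the least, and the groups overlapped at both times. The difference over both times was 1.30 (adjusted p = 0.0610, and 0.00648 with the block). SLC7A5, the light chain of the leucine exchanger, had the largest single difference of any member, with 24 h controls at 7.42, 6.77 and 8.19 and Nnm arrays at 11.27, 6.22 and 10.82. At 48 h it measured 8.70, 6.24 and 6.91 in controls and 9.99, 5.90 and 9.36 with Nnm. Replicate 2 was below its control at both times, and the difference over both times was 1.55 (adjusted p = 0.233). SLC3A2, the heavy chain that SLC7A5 needs at the membrane, differed by 1.32 (adjusted p = 0.0829, and 0.0120 with the block), with replicate 2 above its control by 0.11 and 0.24. With the block 3 of the 4 transporters rose over both times, where 23.8% of all probe sets did.

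The 3 genes for secreted proteins or receptors were not called. GDF15, a stress cytokine, measured 10.38, 10.51 and 10.50 in 24 h controls and 13.03, 9.35 and 12.75 with Nnm, and 11.59, 10.84 and 11.33 against 12.98, 10.17 and 12.37 at 48 h. Replicates 1 and 3 lay above all controls and replicate 2 below all controls at both times. VLDLR, a lipoprotein receptor, measured 8.93, 8.70 and 8.82 in 24 h controls and 9.04, 7.69 and 8.81 with Nnm, and 9.17, 8.97 and 9.00 against 9.03, 8.14 and 8.54 at 48 h. Only its second Nnm array stood clearly low at 24 h, and the difference over both times was -0.39 (adjusted p = 0.202). STC2, a secreted glycoprotein, measured 6.30, 2.84 and 6.04 with Nnm at 24 h and 6.07, 3.06 and 4.81 at 48 h, against controls from 4.33 to 6.72. In replicate 2 at 24 h these 3 genes were the only members at least 2-fold below their control (1.47% of all probe sets were), and at 48 h STC2 and CHAC1 were (1.45% of all).

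**Figure D4:**
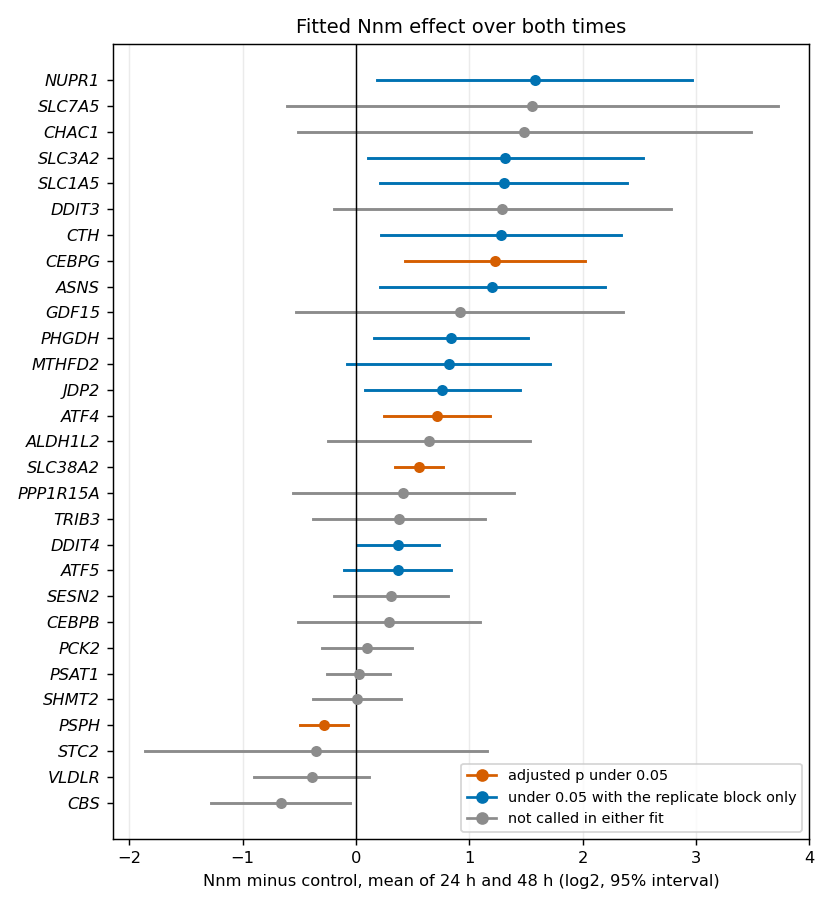
Difference between Nnm and control over both times in log2 for each measured gene (rows, in order of the difference), with its 95% interval from limma on all 12 arrays; orange marks an adjusted p under 0.05, blue one under 0.05 only with the replicate block, grey neither, and NUPR1 passed the filter only through Nnm arrays. Of 29 genes, 25 lie above 0, and the intervals of SLC38A2 and PSPH are the narrowest.

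Replicate 2 thus split the members. At 24 h 25 of 29 members were higher than the same-numbered control in both replicates 1 and 3, and 10 of these 25 were lower in replicate 2. At 48 h it was 23 of 29, of which 15 were lower in replicate 2. All 3 pairs were higher in 15 of 29 members at 24 h, against 28.9% of all probe sets, and in 8 at 48 h, against 30.8%. All 3 were lower in 2 members at 24 h (29.7% of all) and in 4 at 48 h (28.7% of all). ATF5, CEBPG, DDIT4, SLC3A2, SLC1A5 and SLC38A2 were higher in all 6 pairs, 6 of 29 against 19.1% of all probe sets, and 0 were lower in all 6, against 18.9%. This holds for the probe set that stood for each gene. Other probe sets of ATF5 and CEBPG were lower in some pairs, and another probe set of SHMT2 was lower in all 6. The groups did not overlap for ATF4, ALDH1L2, ASNS, CTH and SLC38A2 at 24 h, all higher (5 of 29, against 18.4% of all probe sets), and 0 members were wholly lower (18.9% of all). At 48 h CEBPG and SLC38A2 were wholly higher (18.7% of all) and PSPH wholly lower (16.1% of all). Members without overlap between the groups were thus no more frequent than such probe sets as a whole.

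A control array also stood apart for these genes, which was noticed after their values were seen. In control replicate 1 of 48 h, 26 of 29 members had their highest value of the 3 controls of that time, where 29.8% of all probe sets did. It exceeded the mean of the other 2 controls by a median of 0.59 over the members and -0.02 over all probe sets. CHAC1 (2.58), SLC7A5 (2.13), DDIT3 (1.98), STC2 (1.62) and SLC3A2 (1.16) exceeded it by at least 1 on the log2 scale, 5 of 29 against 0.513% of all. At 24 h, control replicate 1 was the highest of the 3 in 9 of 29 members (32.2% of all), with a median of 0.07. Without the 48 h array the median Nnm difference of the members at 48 h was 0.74 in place of 0.59, a shift that follows from the high values of that control. CHAC1 was then at 1.59 in place of 0.73, DDIT3 at 1.16 in place of 0.50 and SLC7A5 at 1.84 in place of 1.13. PSPH was then not called (-0.47, adjusted p = 0.0870), and 0 members were called at 48 h, where the calls over all probe sets numbered 302 in place of 2323.

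**Figure D5:**
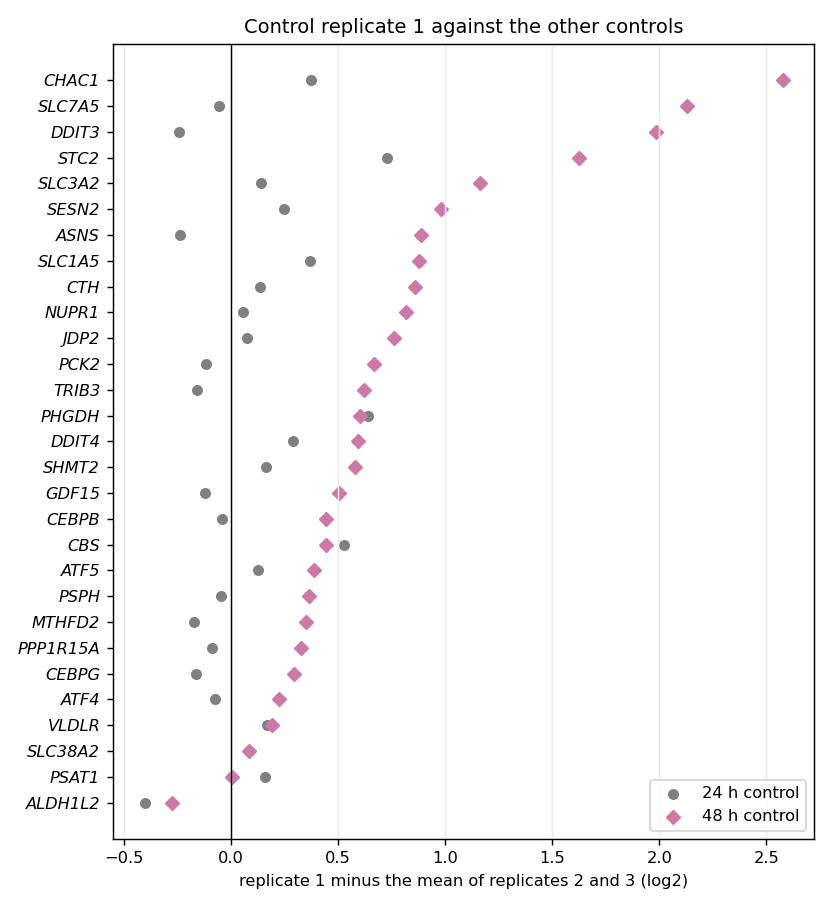
Control replicate 1 minus the mean of control replicates 2 and 3 in log2 for each measured gene, at 24 h and at 48 h. At 48 h the members have a median of 0.59, led by CHAC1 at 2.58 and SLC7A5 at 2.13, while at 24 h the median is 0.07.

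The Nnm effect was next compared between the times, and control cells at 48 h with control cells at 24 h. The change of the Nnm effect from 24 h to 48 h was called by limma for 0 members and for 0 of all probe sets (0% called), although 1 member and 1418 probe sets had an unadjusted p under 0.05. With the block both counts were also 0. PSPH had the lowest p of the members, with a change of -0.61 (adjusted p = 0.780). Without Nnm replicate 2 of both times, a fit that does not test the members, 2556 probe sets (11.2%) and 1 member, PSPH, were called. The change of PSPH was then -0.72. In control cells 0 members and 0 probe sets (0% called) were called between the times, with 2 members and 1836 probe sets at an unadjusted p under 0.05, or 0 members and 12 probe sets (0.0526% of all) with the block.

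Other genes of the pathway were read from 4 further lists, over the mean of both times, where 18.2% of all probe sets rose and 17.2% fell. Of 17 genes for eIF2 kinases, eIF2 and its exchange factor, 3 rose and 2 fell, with a median of 0.02. EIF2AK4, the kinase GCN2 that senses uncharged tRNA, rose by 0.81 (adjusted p = 0.0151), while GCN1, its activator on the ribosome, fell by 0.87 (adjusted p = 0.00308) and EIF2B3, a subunit of the exchange factor, by 0.85 (adjusted p = 0.00886). Of 18 measured among 21 other known ATF4 targets, 6 rose and 1 fell, with a median of 0.14. SLC7A11, the cystine importer, rose by 1.98 (adjusted p = 0.0231), INHBE, an activin subunit, by 1.52 (adjusted p = 0.0231) and SLC1A4, a serine and alanine transporter, by 1.44 (adjusted p = 0.0174), and PYCR1, which makes proline, fell by 0.88 (adjusted p = 0.00263). In replicate 2 SLC7A11 differed by 0.70 at 24 h and 0.14 at 48 h, INHBE by 1.05 and -0.29, and SLC1A4 by 0.73 and 0.77. Of 17 measured genes of the IRE1 and ATF6 arms of the unfolded protein response, 5 rose and 3 fell, with a median of -0.16. The sensor kinase gene ERN1 rose by 1.91 (adjusted p = 0.0301), the co-chaperone gene DNAJC3 by 0.87 (adjusted p = 0.0346) and SDF2L1 fell by 0.87 (adjusted p = 0.00285), while the chaperone gene HSPA5 differed by -0.11 (adjusted p = 0.668). Of 13 measured among 20 other folate and methionine enzymes, 0 rose and 9 fell, with a median of -0.46, among them MTHFD2L by 1.33 (adjusted p = 0.00129), GART by 0.97 (adjusted p = 0.00626) and FPGS by 0.97 (adjusted p = 0.00261). In replicate 2 MTHFD2L differed by -0.99 at 24 h and -1.04 at 48 h, so here that array was low as well. With the block, 4 rose and 5 fell in the first list, 7 and 1 in the second, 6 and 6 in the third and 1 and 10 in the fourth. Of all probe sets 23.8% rose and 23.4% fell in that fit. These lists were counted over both times, in fits whose arrays may not be independent.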

How the data were processed

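Each of the 12 arrays held total RNA of 1 sample. The deposited table gives 1 log2 value per probe set, made by the authors with GCRMA per the submitters' processing notes. The log base was read from the range of the values, and the version of GCRMA and the arrays it was run over are not given in the sources used. Array medians were 2.91 to 2.98, so these values could not show a shift of most transcripts together. The number of arrays limits the precision.

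Of 54675 probe sets, 62 controls were left out and 22829 had a value above 4 on at least 3 arrays. The annotation of the platform named 1 gene for 41097 probe sets, several for 1801 and none for 11777, and 41043 matched a RefSeq gene. All arrays entered 1 model of 4 groups in limma 3.58.1 (R 4.3.3), and every adjusted p comes from its lmFit and eBayes with Benjamini-Hochberg adjustment over all tested probe sets. The fit was tested on simulated data with independent arrays and the spread of the control arrays. That test therefore does not cover the wider spread of many genes in the Nnm groups, or arrays that deviate together. Where a group's mean was under 4, a fold is given as at least the brighter mean over that level. Same-numbered arrays deviated together from their group means, with 18 correlations from 0.162 to 0.669 (median 0.363). The 36 pairs of different numbers ran from -0.655 to 0.372 (median -0.208), so the ranges overlapped. Deviations from a group mean sum to 0, so the negative median of those pairs is no separate evidence. The number was used as a block because of this check of the data, and the labels state no pairing. For the probe set that stands for a member, a blocked value, with this number as the block, stands beside a result where it changes the call. Otherwise the gene is named in the counts with the block. For the other lists only the counts with the block are given.

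The members, the other lists and the tests were chosen with earlier results of these data known. Values on every array are given for called members and for the 2 members with the smallest p of a role group with fewer than 2 called; DDIT3, NUPR1, SLC7A5, CBS and STC2 were added after their values were seen. The other lists were to name at most 3 called genes each, by size of change; PYCR1 and HSPA5 were added for their direction or role. Alternatives were other filters, another quantile normalization, the block, gene means, 6 arrays alone and left-out arrays.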

Additional observations from a re-analysis of the deposited data

How the results depend on the processing

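With the replicate block, 9 members and 6700 probe sets were called at 24 h in place of 1 and 3366, 4 and 5046 at 48 h in place of 1 and 2323, 14 members over both times in place of 4, and 12 probe sets for time in control cells in place of 0. Without Nnm replicate 2 of both times the counts were 19 and 10730 at 24 h, 19 and 9605 at 48 h, 23 and 13276 over both, 1 and 2556 for the change between times, and 26 probe sets for time in control cells. With no filter on low values, which tests 54613 probe sets, 848, 842 and 5055 were called at 24 h, at 48 h and over both, with 1 member over both, and 2 for the change and 1 in control cells. The stricter filter gave 1 in control cells. Averaging the probe sets of each of 10966 genes gave 2097, 1408 and 4283 called genes, and 2 in control cells. The 6 arrays of 1 time gave 0 members and 112 probe sets at 24 h and 0 and 115 at 48 h. Averaging both times per number, chosen after seeing the data, gave 0 members and 1024 probe sets, and with the replicate block 0 and 0. Leaving out 1 array, members called ran from 0 to 14 at 24 h, from 0 to 9 at 48 h, from 1 to 17 over both, and were 0 for the change and in control cells. Probe sets ran from 81 (without control replicate 3) to 8683 (without Nnm replicate 2) at 24 h, from 207 (without Nnm replicate 3) to 6117 (without Nnm replicate 2) at 48 h, from 5455 to 11156 over both, from 0 to 1028 for the change and from 0 to 4 in control cells. The causes were not tested, apart from fewer arrays and other numbers of features. No member's call reversed its sign under any of these, and a further quantile normalization changed no member's call in the 3 Nnm comparisons.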
